A study of Rattus norvegicus with 42 samples.

Results

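Silica dust is cleared slowly from the lung, and the silica effect analysed here is a change over time: the difference between silica-exposed and air-exposed rats on a high-fat diet 9 months after exposure, minus the same difference 3 months after exposure. It was read in 22 of the 42 rats of the study, chosen by the group names of the deposited columns. They were 6 silica and 6 air rats killed 9 months after exposure, and 5 silica and 5 air rats killed 3 months after exposure. All were male Fischer 344 rats bought at 3 months of age, and all ate a diet with 60% of its energy as fat for 2 weeks before exposure and for the rest of the study. The silica rats breathed crystalline silica at 15 mg/m3 for 6 hours a day on 5 days by whole-body exposure, and the air rats were exposed to air. The remaining 20 rats had the same exposures on a regular diet, with 18% of energy from fat: 5 silica and 6 air rats at 9 months, and 5 silica and 4 air rats at 3 months. Total RNA from a piece of lung of each rat was depleted of ribosomal RNA and sequenced with strand-marked libraries, and the values used are read counts per gene. Each rat was 1 library, so p-values measure the spread between separate rats. Each time point had its own rats and its own table, so time after exposure, age and table are 1 factor. Levels were therefore compared only between silica and air rats within a time, and only those silica effects were compared across times.

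Crystalline silica particles are engulfed by alveolar macrophages, the phagocytes of the air spaces, and are held in their lysosomes, the acidic compartments where cathepsins and other hydrolases digest engulfed material. Silica damages the lysosomal membrane and activates the NLRP3 inflammasome, and surviving or dying macrophages release the particles to be engulfed again, so that inflammation continues long after the dust is inhaled. Silicosis in people and rats is known for lipid-laden macrophages, overgrowth of surfactant-making alveolar type 2 cells and, later, fibrous nodules rich in collagen.

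Total counts in the 22 high-fat libraries ran from 3078216 to 8319382, and the lowest was silica rat 2 at 9 months (rats are numbered within a group in the order of their tags). Lung identity was as labelled: Ager, of alveolar type 1 cells, lay between 1163 and 1787 CPM (the count scaled to a library of fixed size), and Pecam1, of endothelium, between 231.7 and 447.4 CPM. The share of counts on the ribosomal RNA rows Rnr1 and Rnr2 was 7.66% ± 0.217 in the silica rats at 9 months, against 6.21% ± 1.11 in the air rats (SD, n = 6 each, 2-sided exact permutation test, p = 0.00216, adjusted p = 0.00432 over 2 times). At 3 months it was 1.18% ± 0.263 in silica rats and 0.957% ± 0.267 in air rats (SD, n = 5 each, exact permutation test, p = 0.214, adjusted p = 0.214). With that share as a covariate 1671 genes were called for the change over time, and 97.9% of the genes called without it were among them. Some libraries stood apart. Air rat 6 at 9 months and air rat 4 at 3 months were the highest of their groups in several genes that silica raised, and summed striated muscle markers ran from 60.2 to 1881 CPM in the air rats at 9 months. Calls lost without them are named for the genes whose differences are given below.

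Of 15759 genes tested, 1681 genes (10.7%) had a silica effect that differed between 9 and 3 months at an adjusted p below 0.05 (edgeR quasi-likelihood test, Benjamini-Hochberg adjustment over all genes). For 1032 genes (6.55%) the effect was more positive at 9 months, and for 649 genes (4.12%) it was more negative. Those shares are the background for each list count of higher and lower differences below. Most differences were modest: their median size was 0.48 on the log2 scale, and 95 of the higher and 79 of the lower genes passed a 2-fold difference. Silica against air alone called 8005 genes (50.8%) at 9 months and 2897 genes (18.4%) at 3 months. The count of genes with a difference fell to 1115 without silica rat 3 at 3 months and lay between 1332 and 1908 without any other single rat.

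Growth of an effect already present at 3 months was one pattern and a new effect at 9 months was another. Among the 1032 genes with a higher difference, 444 were raised by silica at both times and 547 were raised at 9 months but not called at 3 months. Among the 649 genes with a lower difference, 198 were lowered at both times and 431 were lowered at 9 months only by this rule. An effect not called at 3 months is not shown to be absent there. Genes whose effect shrank were few: 13 were raised at 3 months and not called at 9 months, 2 were raised at both times but less at 9 months, 25 were lowered at 3 months and not called at 9 months, and 1 was lowered at both times but less at 9 months. At 9 months 6 genes were raised that were lowered at 3 months, and 3 genes showed the opposite order.

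**Figure D1:**
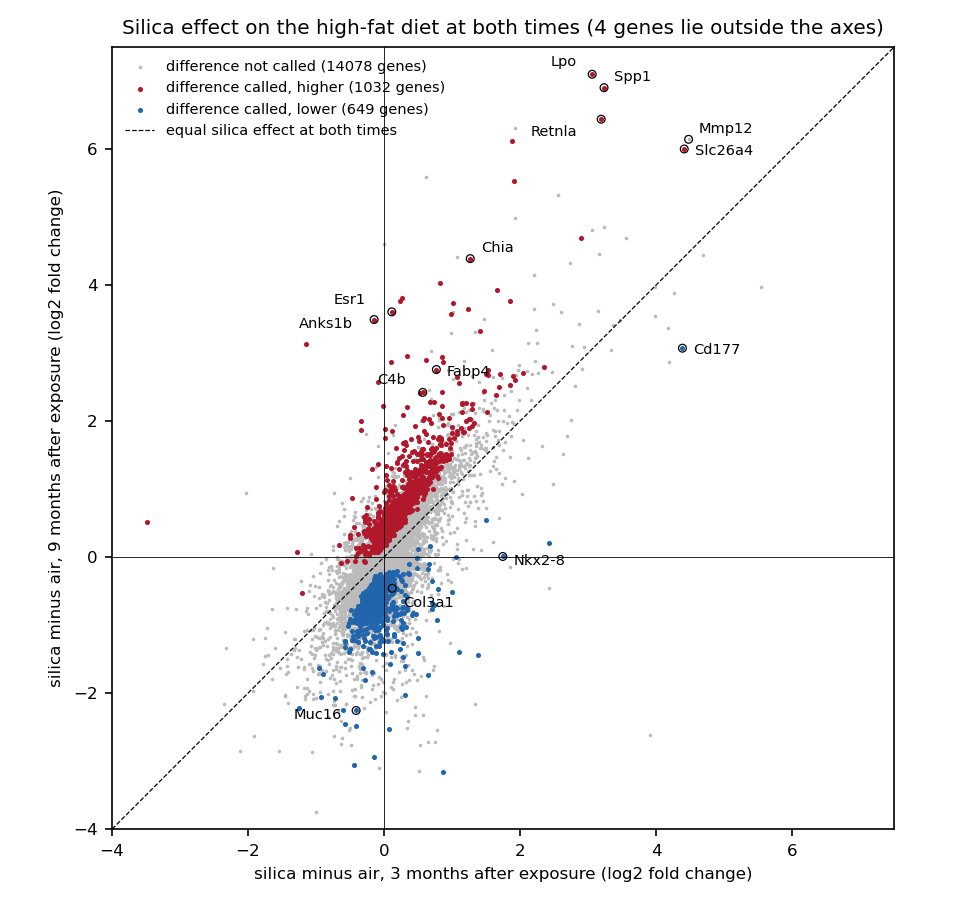
Each point is 1 of 15759 genes, with the silica minus air log2 fold change at 3 months on the x axis and at 9 months on the y axis, for rats on the high-fat diet. Red points are the 1032 genes whose effect was more positive at 9 months and blue points the 649 whose effect was more negative, ringed genes are named in the text, and 4 genes lie outside the axes. Esr1 and Anks1b sit near 0 at 3 months and above 3 at 9 months, while Cd177 lies below the dashed line of equal effects.

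The smallest p-value of the whole comparison belonged to Esr1, the gene of estrogen receptor alpha, a hormone-activated transcription factor. Esr1 had a lowest, median and highest level of 83.2, 88.7 and 107 CPM in silica rats at 9 months, against 5.40, 7.40 and 10.1 CPM in air rats. At 3 months it had 6.33, 8.04, 4.79, 6.21 and 7.82 CPM in silica rats and 7.04, 4.85, 5.83, 6.47 and 6.15 CPM in air rats. The 9-month groups were far apart, and the 3-month groups lay across each other. Its silica effect was 3.61 ± 0.15 (log2 ± SE, adjusted p = 2.79e-22) at 9 months and 0.11 ± 0.22 (adjusted p = 0.795) at 3 months, a difference of 3.49 ± 0.28 (adjusted p = 1.89e-11). Col16a1, a collagen that associates with fibrils, had 269, 303 and 381 CPM in silica rats and 89.6, 107 and 114.7 CPM in air rats at 9 months as lowest, median and highest. Its difference of 1.27 ± 0.14 (adjusted p = 6.93e-08) was positive, opposite to that of the fibrillar collagens described further on. Anks1b, an ankyrin-repeat scaffold protein known from neurons, resembled Esr1: its effect was 3.49 ± 0.24 at 9 months and -0.15 ± 0.47 at 3 months, a difference of 3.64 ± 0.58 (adjusted p = 5.71e-05). Calr, the calcium-binding chaperone of the endoplasmic reticulum, changed less, with a difference of 0.56 ± 0.07 (adjusted p = 2.08e-06), and all silica rats lay above all air rats at both times. Tmtc1, a membrane protein of the endoplasmic reticulum, had a difference of 0.89 ± 0.10, and Fam20c, a Golgi kinase of secreted proteins, one of 0.98 ± 0.12. Lhfpl2, a membrane protein, had 1.19 ± 0.14 and Pcdh9, a cell adhesion protein, 1.19 ± 0.15, and all 4 of these genes had silica above air without overlap at 9 months. The share of all genes without overlap was not counted, and 50.8% of all genes were called for silica at that time.

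**Figure D2:**
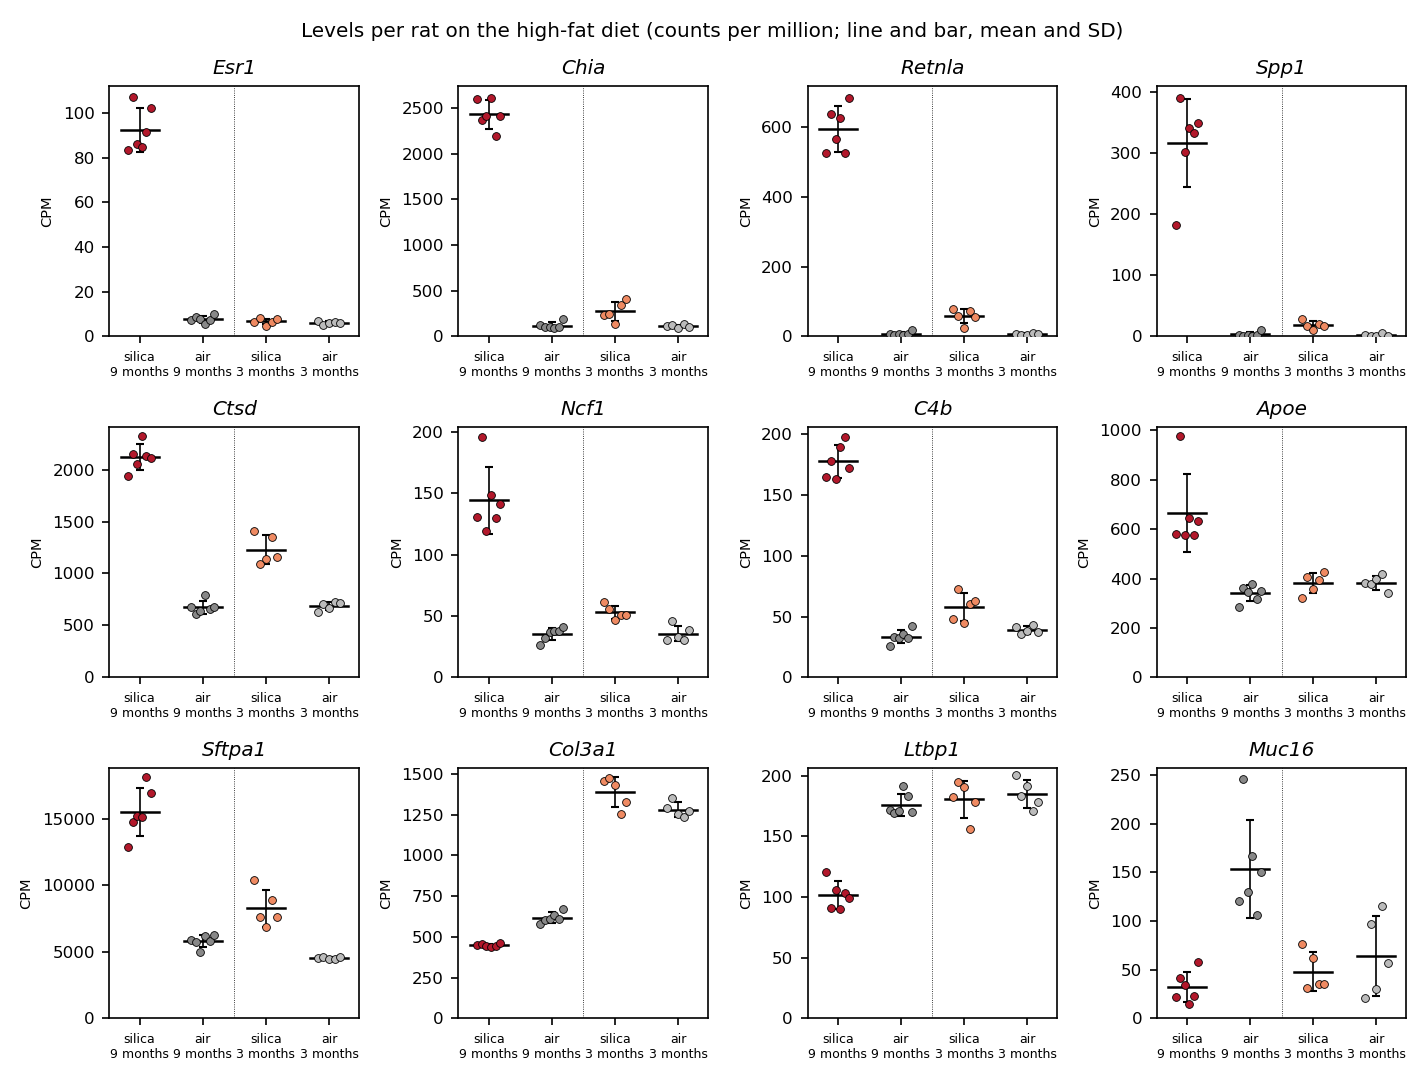
Points are single rats on the high-fat diet, with CPM on each y axis from 0. The 4 groups run from silica to air at 9 months and then from silica to air at 3 months, and lines and bars give the mean and SD. The first 9 genes stand higher in silica than in air rats at 9 months, and Col3a1, Ltbp1 and Muc16 stand lower.

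Lysosomal genes held more calls than any other of the 45 lists described. Of 25 tested genes for the proton pump that acidifies lysosomes, for cathepsins and for other lysosomal proteins, 16 had a higher difference and none a lower one, with a list median of 0.44 on the log2 scale against 0.011 over all genes tested. At 9 months 23 of the 25 were raised and 2 lowered (26.0% and 24.8% of all genes were), and at 3 months 21 were raised and 1 lowered (9.77% and 8.61% of all genes). Ctsb, a cysteine protease of the lysosome, had 1426, 1731 and 1779 CPM in silica rats at 9 months (lowest, median, highest), against 658, 675 and 744 CPM in air rats. It had 969, 785, 831, 923 and 851 CPM in silica rats at 3 months and 576, 608, 599, 626 and 622 CPM in air rats. Silica and air rats did not overlap at either time, and the gap was wider at 9 months. The effect of silica on Ctsb was 1.29 ± 0.07 at 9 months and 0.52 ± 0.08 at 3 months, and the difference was 0.76 ± 0.10 (adjusted p = 6.26e-06). Ctsh, an aminopeptidase that also processes surfactant protein in type 2 cells, averaged 1623 ± 172 CPM in silica rats and 494 ± 36.8 CPM in air rats at 9 months (SD, n = 6 each), and its difference was 0.88 ± 0.14 (adjusted p = 5.71e-05). Ctss, the cathepsin that trims the class II invariant chain, had a difference of 0.68 ± 0.12 (adjusted p = 0.000334). Atp6v0a1, a membrane subunit of the proton pump, had one of 0.49 ± 0.08 (adjusted p = 5.82e-05). In each of these 4 genes silica and air rats did not overlap at either time, and the share of all genes without overlap was not counted. The count of 16 lay between 16 and 18 under all 32 other settings, including those without 1 rat.

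Many lysosomal genes are switched on by TFEB and its relatives, factors that bind an E-box with the core CACGTG within the longer element TCACGTGA. RefSeq promoters of the rat assembly GRCr8, a later build than the Rnor 6.0 of the counts, were available for 17 of the 25 genes. Within the 250 bases before the annotated start, CACGTG occurred in 3 of the 17 genes and in 5.59% of 33469 promoters. The 8-letter element TCACGTGA, which contains it and like it reads the same on both strands, occurred in the same 3 genes and in 0.657% of promoters. The gene counts take a match in any promoter of a gene and the percentages count single promoters, so they are in unlike units. A match describes the letters and not binding. The 3 windows are shown because they hold this element. Their genes are among the 16 of 25 listed genes with a higher difference, and a link between the element and the difference was not tested. Each window runs 5′ to 3′ on the strand of its gene, with TCACGTGA in capitals. Atp6v0d1 lies at chr19:50357249-50357498, Ctsd at chr1:206968822-206969071 and Lamp1 at chr16:83075064-83075313, all on the minus strand. The first base of the element stands 53 bases before the start in Atp6v0d1, 11 bases in Ctsd and 66 bases, for the first of 2 copies, in Lamp1.
Atp6v0d1: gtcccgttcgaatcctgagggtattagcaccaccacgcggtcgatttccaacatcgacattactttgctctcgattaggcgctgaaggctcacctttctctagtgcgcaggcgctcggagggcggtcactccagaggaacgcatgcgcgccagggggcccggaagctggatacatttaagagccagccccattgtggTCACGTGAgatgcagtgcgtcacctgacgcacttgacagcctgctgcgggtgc
Ctsd: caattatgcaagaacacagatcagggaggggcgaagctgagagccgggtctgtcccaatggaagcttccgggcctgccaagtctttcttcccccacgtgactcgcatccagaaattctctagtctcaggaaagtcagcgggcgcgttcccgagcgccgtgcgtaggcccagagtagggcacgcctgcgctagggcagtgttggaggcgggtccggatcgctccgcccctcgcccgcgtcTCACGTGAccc
Lamp1: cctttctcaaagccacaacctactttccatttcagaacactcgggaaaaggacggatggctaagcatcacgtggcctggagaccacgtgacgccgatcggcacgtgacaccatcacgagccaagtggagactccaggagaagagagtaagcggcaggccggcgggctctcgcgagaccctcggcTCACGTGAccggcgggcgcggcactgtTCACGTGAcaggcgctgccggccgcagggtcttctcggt

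These 3 genes, whose values were picked out because of their promoters and after values had been seen, all had a higher difference. Ctsd encodes cathepsin D, an aspartic protease. It had 1942, 2125 and 2324 CPM (lowest, median, highest) in silica rats and 609, 667 and 792 CPM in air rats at 9 months. At the earlier time the silica rats had 1407, 1090.1, 1143, 1348 and 1154 CPM and the air rats 627, 704, 664, 726 and 716 CPM. Neither time had an overlap, and the silica effect of 1.65 ± 0.11 at 9 months was 0.81 ± 0.15 above that of 0.84 ± 0.11 at 3 months (adjusted p = 0.000593). Atp6v0d1, another pump subunit, had 165, 187 and 208 CPM in silica rats and 111.1, 121.4 and 125 CPM in air rats at 9 months, and its difference was 0.47 ± 0.09 (adjusted p = 0.000336). Lamp1, a glycoprotein that lines the lysosomal membrane, had 711, 822 and 935 CPM in silica rats and 524, 546 and 595 CPM in air rats at 9 months, with a difference of 0.40 ± 0.08 (adjusted p = 0.00126). For Atp6v0d1 and Lamp1 the effect at 3 months was small, at 0.18 ± 0.06 and 0.18 ± 0.06, though silica rats stood above air rats in both.

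Genes of macrophages that take up, store and export lipid moved in the same direction. Of 21 tested, 12 had a higher difference and none a lower one, with a median of 0.52; 3 of them, Ctsb, Ctsd and Ctsk, also belong to the lysosomal list. At 9 months 17 were raised and 1 lowered (26.0% and 24.8% of all genes were). At 3 months 15 were raised and none lowered (9.77% and 8.61% of all genes). Spp1, the secreted phosphoprotein osteopontin, had the largest difference of the list. It had 183, 337 and 390.0 CPM in silica rats (lowest, median, highest) and 1.2, 1.69 and 10.8 CPM in air rats at 9 months. The 3-month values of Spp1 were 28.4, 17.5, 10.2, 19.5 and 16.8 CPM in silica rats and 2.22, 0.313, 0.707, 4.71 and 1.30 CPM in air rats. No silica rat reached down to an air rat, although air rat 6 at 9 months and air rat 4 at 3 months were the highest of their groups. The difference was 3.67 ± 0.87 (adjusted p = 0.00452); without air rat 4 at 3 months it was 2.96 ± 1.07 and no longer called (adjusted p = 0.0754).

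Apoe, which carries cholesterol out of cells, was changed at the later time: it had 578, 606 and 979 CPM in silica rats at 9 months, where silica rat 2, the shallowest library, was the highest, against 286, 349 and 378 CPM in air rats. At 3 months silica rats had 322, 404, 359, 395 and 428 CPM and air rats 381, 378, 398, 417 and 342 CPM, which overlapped. Its silica effect was 0.96 ± 0.11 at 9 months and -0.01 ± 0.12 at 3 months (difference 0.97 ± 0.16, adjusted p = 0.000137). Pla2g7, a secreted enzyme that hydrolyses oxidised phospholipid, had a like course, with 1.34 ± 0.15 at 9 months and 0.03 ± 0.18 at 3 months (difference 1.31 ± 0.24, adjusted p = 0.0003). Gpnmb, a membrane glycoprotein of lipid-laden phagocytes, was raised at both times, by 2.69 ± 0.13 and 1.70 ± 0.14 (difference 0.99 ± 0.18, adjusted p = 0.00034). Plin2, which coats lipid droplets, had a smaller difference of 0.57 ± 0.10 (adjusted p = 0.000346).

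Among 14 markers of alveolar macrophages 4 had a higher difference (Fabp4, Siglec1, Cd68 and Siglec5) and none a lower one, with a median of 0.51. Fabp4, a carrier of fatty acids in macrophages and fat cells, had 82.8, 104 and 115.4 CPM in silica rats and 10.1, 14.1 and 21.3 CPM in air rats at 9 months. Silica rats had 21.1, 15.8, 12.5, 20.2 and 19.2 CPM at 3 months, against 9.13, 9.86, 10.1, 12.8 and 9.71 CPM in air rats. The groups lay far apart at 9 months, while silica rat 3 was below air rat 4 at 3 months. The difference was 1.99 ± 0.29 (adjusted p = 1.36e-05). Siglec1, the sialic acid receptor of tissue macrophages, had a difference of 1.46 ± 0.20 (adjusted p = 6.55e-06), and Cd68, a protein of phagocyte endosomes and lysosomes, one of 1.06 ± 0.16 (adjusted p = 1.72e-05). The summed level of the 14 markers was 1304 to 1661 CPM in silica rats and 619.7 to 726 CPM in air rats at 9 months, and 794 to 958 CPM in silica rats and 531 to 614 CPM in air rats at 3 months. Their part in the lysosomal and lipid-handling results was not tested. In bulk lung tissue, more cells of a type and more RNA per cell cannot be told apart.

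Among 14 genes of alternative activation, the state mouse macrophages enter under interleukin 4 and 13, 4 had a higher difference: Chia, Retnla, Tgm2 and Stat6. None had a lower difference, and the list median was 0.22. Stat6, which relays the interleukin 4 signal, had a difference of 0.22 ± 0.07 (adjusted p = 0.0462) and lost its call in 19 of 22 fits without 1 rat. Chia, acidic chitinase, had 2189, 2411 and 2613 CPM in silica rats at 9 months, against 86.4, 101 and 193 CPM in air rats. In the 3-month groups Chia reached 239, 239, 134.1, 344 and 410.3 CPM in silica rats and 108, 121.2, 96.3, 136 and 106 CPM in air rats. Every silica rat exceeded every air rat at 9 months, whereas silica rat 3 lay below the highest air rat at 3 months. The silica effect on Chia was 4.39 ± 0.26 at 9 months and 1.27 ± 0.26 at 3 months, a difference of 3.12 ± 0.35 (adjusted p = 1.79e-07). Retnla, a secreted resistin-like protein, had 525, 597 and 684 CPM in silica rats and 3.36, 5.57 and 19.2 CPM in air rats at 9 months. It had 78.0, 58.4, 25.2, 72.8 and 54.3 CPM in silica rats and 7.04, 3.44, 4.95, 9.27 and 6.15 CPM in air rats at 3 months. Groups were apart at both times, with a difference of 3.25 ± 0.53 (adjusted p = 6.99e-05). Arg1, the arginase of such macrophages, was raised at both times by nearly the same amount, 1.55 ± 0.15 at 9 months and 1.497 ± 0.18 at 3 months, and its difference of 0.06 ± 0.24 was not called (adjusted p = 0.915). None of 8 tested genes of eosinophils and type 2 cytokines had a called difference.

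The oxidase with which phagocytes make superoxide also changed. Of 7 subunits and partners, 6 had a higher difference and none a lower one, with a median of 0.51. All 7 were raised by silica at both times, against 26.0% of all genes at 9 months and 9.77% at 3 months. Ncf1, the organising subunit p47phox, had 119.03, 136 and 196 CPM in silica rats and 26.6, 37.4 and 41.0 CPM in air rats at 9 months. At 3 months it had 61.2, 55.3, 46.8, 51.1 and 50.5 CPM in silica rats and 30.6, 45.6, 32.7, 30.7 and 38.5 CPM in air rats. The groups did not overlap at either time, and the difference was 1.45 ± 0.17 (adjusted p = 5.26e-07). Rac2, the small GTPase that switches the oxidase on, had a difference of 0.55 ± 0.12 (adjusted p = 0.00197). The count of 6 rested on few rats: it was 2 without air rat 2 or silica rat 3 at 3 months and 3 without air rat 2 at 9 months or without air rat 6 at 9 months and air rat 4 at 3 months. Among 20 genes of the oxidative stress response 5 had a higher difference and 1, Sod3, a lower one. The first count fell to 3 without air rat 2 or 4 or silica rat 2 or 3 at 3 months and without air rat 1, 2 or 3 or silica rat 5 or 6 at 9 months, and Sod3 lost its call in 12 of 22 fits without 1 rat. Hmox1, which breaks down haem, averaged 108 ± 7.74 CPM in silica rats and 26.5 ± 2.76 CPM in air rats at 9 months (SD, n = 6 each), and 60.5 ± 12.5 CPM in silica rats and 25.2 ± 3.78 CPM in air rats at 3 months (SD, n = 5 each). Its difference was 0.78 ± 0.18 (adjusted p = 0.00445). Ftl1, the ferritin light chain that stores iron, had a difference of 1.40 ± 0.26 (adjusted p = 0.000476), a value that is uncertain because ferritin genes have near-identical copies.

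In the complement cascade, which tags particles for uptake, 8 of 22 tested genes had a higher difference and 1, Masp1, a lower one. At 9 months 20 were raised and at 3 months 14, against 26.0% and 9.77% of all genes. C4b, a component cut by the classical and lectin pathways, had 163, 175 and 197 CPM in silica rats and 25.5, 32.6 and 41.9 CPM in air rats at 9 months. At the earlier time the silica rats had 48.3, 73.0, 44.8, 60.6 and 63.0 CPM and the air rats 41.2, 35.2, 38.0, 42.7 and 37.6 CPM. All silica rats lay above all air rats at both times, by a wide margin at 9 months and a narrow one at 3 months. Its difference of 1.85 ± 0.19 (adjusted p = 1.79e-08) had the next smallest p-value after Esr1, although C4b and C4a are near-identical and reads may be split between them. Cfb, the protease of the alternative pathway, had a difference of 0.92 ± 0.12 (adjusted p = 3.49e-06), and C2, its counterpart in the classical pathway, one of 1.00 ± 0.19 (adjusted p = 0.000579). C3, the hub of the cascade, had large effects at both times, 2.80 ± 0.10 at 9 months and 2.35 ± 0.11 at 3 months. Its smaller difference of 0.45 ± 0.15 (adjusted p = 0.0403) was lost in 13 of 22 fits without 1 rat.

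Of 8 class II genes tested 7 were raised at 9 months (26.0% of all genes) and 8 at 3 months (9.77% of all genes). A higher difference was called in 4: Cd74, RT1-Da, RT1-Ba and RT1-Bb. Cd74, the invariant chain, had 1957, 2235 and 2462 CPM in silica rats and 856, 908 and 969.8 CPM in air rats at 9 months, and its difference was 0.59 ± 0.10 (adjusted p = 0.000105). Among 20 CC chemokines and receptors Ccl3 and Cx3cl1 were called, both higher, a share near that of all genes (6.55% higher). Ccl3, which attracts monocytes, had a difference of 0.96 ± 0.22 (adjusted p = 0.00398). Ccl2, the main monocyte chemokine, had effects of 4.69 ± 0.23 at 9 months and 3.56 ± 0.29 at 3 months, and the difference of 1.12 ± 0.48 was not called (adjusted p = 0.126). The same was true of Mmp12, macrophage elastase, at 6.14 ± 0.32 and 4.48 ± 0.37 (difference 1.66 ± 0.67, adjusted p = 0.108). Of 14 inflammasome and interleukin 1 genes 3 had a higher difference, among them Nlrp3, the sensor of lysosomal damage, at 0.54 ± 0.14 (adjusted p = 0.0113).

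Of 8 neutrophil markers 7 had a positive difference, with a list median of 0.34, and 2 were called: Csf3r higher and Cd177 lower. S100a9, a calcium-binding protein of neutrophils, had 0.64 ± 0.36 (adjusted p = 0.265) and Mmp9, a gelatinase, 0.89 ± 0.33 (adjusted p = 0.0799). None of 9 neutrophil chemokines and receptors was called. Cd177, a surface protein of neutrophils, had 32.2, 35.2 and 45.4 CPM in silica rats and 3.46, 4.34 and 5.21 CPM in air rats at 9 months. The 3-month values of Cd177 were 33.0, 28.5, 30.0, 36.6 and 31.3 CPM in silica rats and 1.04, 1.10, 1.41, 2.65 and 1.30 CPM in air rats. Silica rats were well above air rats at both times, and the effect was smaller at 9 months (3.07 ± 0.15) than at 3 months (4.39 ± 0.20), a difference of -1.32 ± 0.30 (adjusted p = 0.00308). Lcn2, an iron-binding protein of neutrophils and epithelium, had a difference of -0.81 ± 0.35 that was not called (adjusted p = 0.133). The call of Csf3r was lost without air rat 2 or 4 at 3 months. In the lymphocyte lists 1 of 19 T cell genes (Icos) and 3 of 18 B and plasma cell genes (Xbp1, Irf4 and Derl3) were called. None of 8 natural killer cell genes was. These calls were all higher, against 6.55% of all genes called higher and 10.7% called in either direction. The list medians were 0.23 for T cells, -0.06 for B and plasma cells and 0.16 for natural killer cells. Of the 18 B and plasma cell genes 8 had a positive difference. Irf4 lost its call in 15 of 22 fits without 1 rat, and Icos lost it without air rat 2 at 3 months. Mast cell genes split: Cpa3, Mcpt2 and Tpsb2, enzymes of mast cell granules, had a higher difference, and Kit and Hdc, the stem cell factor receptor and the histamine-forming enzyme, a lower one. Cpa3 had 2.44, 3.91 and 4.62 CPM in silica rats and 0.315, 0.757 and 0.960 CPM in air rats at 9 months, and its difference of 1.88 ± 0.53 (adjusted p = 0.0165) was not called without air rat 2 at 3 months (adjusted p = 0.052). Without air rat 1 at 3 months the 3 higher mast cell calls fell to 1.

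Surfactant genes of alveolar type 2 cells were raised at both times, 12 of 14 each, against 26.0% of all genes at 9 months and 9.77% at 3 months. Of the 14, 6 had a higher difference with none lower: Sftpa1, Sftpd, Napsa, Lpcat1, Scd and Lyz2 (list median 0.42). Sftpa1, the collectin surfactant protein A, had 12870.4, 15132 and 18115 CPM in silica rats at 9 months, against 4977, 5826 and 6282 CPM in air rats. Silica rats had 10392, 7620.1, 6845, 8856 and 7601 CPM at 3 months, against 4496, 4573, 4472, 4472 and 4584 CPM in air rats. There was no overlap at either time, and the difference was 0.55 ± 0.13 (adjusted p = 0.00614). Lpcat1, which makes the main surfactant phospholipid, had a difference of 0.52 ± 0.12 (adjusted p = 0.00423). Lyz2, the lysozyme that type 2 cells share with macrophages, had one of 0.51 ± 0.14 (adjusted p = 0.0117). Sftpc, the hydrophobic surfactant protein C, was raised at both times but its difference of 0.13 ± 0.15 was not called (adjusted p = 0.618). The count of 6 was 3 without silica rat 2 or 3 at 3 months or without air rat 3 at 9 months.

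Lipid synthesis genes, active in type 2 cells and foamy macrophages, gained effect in part. Of 16 genes of fatty acid synthesis 5 had a higher difference (Srebf1, Acly, Fasn, Scd and Dgat2), and of 23 genes of cholesterol synthesis and uptake 6 did (Fdps, Sqle, Cyp51 and Sc5d among them). None was lower, and both list medians were 0.28. Silica raised 15 of the 16 and 21 of the 23 at 9 months (26.0% of all genes), against 12 and 9 at 3 months (9.77% of all genes). Dgat2, which forms triglyceride, had 76.7, 78.2 and 90.3 CPM in silica rats and 29.6, 30.9 and 33.6 CPM in air rats at 9 months, and a difference of 0.64 ± 0.13 (adjusted p = 0.000813). Srebf1, the transcription factor that drives fatty acid synthesis, had one of 0.56 ± 0.14 (adjusted p = 0.007), and Cyp51, an enzyme of the late cholesterol pathway, one of 0.61 ± 0.13 (adjusted p = 0.00139). Of 25 fatty acid oxidation genes 1 (Plin2) had a higher difference, against 6.55% of all genes. The fatty acid count fell to 3 without air rat 4 or silica rat 2, 3 or 4 at 3 months and without air rat 1 or 3 at 9 months. The cholesterol count fell to 3 without air rat 2 or silica rat 3 or 4 at 3 months and without air rat 2 or 3 at 9 months.

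A small airway-type group had the highest list median, 1.59: Slc26a4, Lpo, Duox1 and Duoxa1 of 5 genes tested had a higher difference. In airway epithelium pendrin (Slc26a4) brings in thiocyanate, dual oxidases make hydrogen peroxide and lactoperoxidase (Lpo) joins them into an antimicrobial oxidant. Duox1 had 54.3, 71.2 and 93.0 CPM in silica rats and 10.1, 15.5 and 18.7 CPM in air rats at 9 months. In the 3-month groups Duox1 reached 18.4, 18.2, 12.9, 24.2 and 17.8 CPM in silica rats and 13.0, 9.39, 10.4, 11.9 and 11.5 CPM in air rats. The groups overlapped at 3 months only through silica rat 3, and the difference was 1.61 ± 0.25 (adjusted p = 4.24e-05). Lpo had 118.1, 139 and 153 CPM in silica rats at 9 months, against 0, 0.145 and 6.76 CPM in air rats, where air rat 6 alone was above 1 CPM. At 3 months it had 6.94, 4.79, 6.11, 2.24 and 3.13 CPM in silica rats and 0.1304, 0, 0, 2.50 and 0 CPM in air rats, where air rat 4 alone was above 1 CPM. Its difference of 4.04 ± 1.24 (adjusted p = 0.0288) rested on those libraries: without air rat 4 at 3 months the other air rats held at most 1 count of Lpo each and no difference was called (adjusted p = 0.985), nor without both (adjusted p = 0.728). The count of 4 fell to 2 without air rat 2 or 4 at 3 months. Slc26a4 was raised strongly at both times, by 6.00 ± 0.29 and 4.41 ± 0.33, and its difference of 1.59 ± 0.54 (adjusted p = 0.0493) lost its call in 18 of 22 fits without 1 rat.

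**Figure D3:**
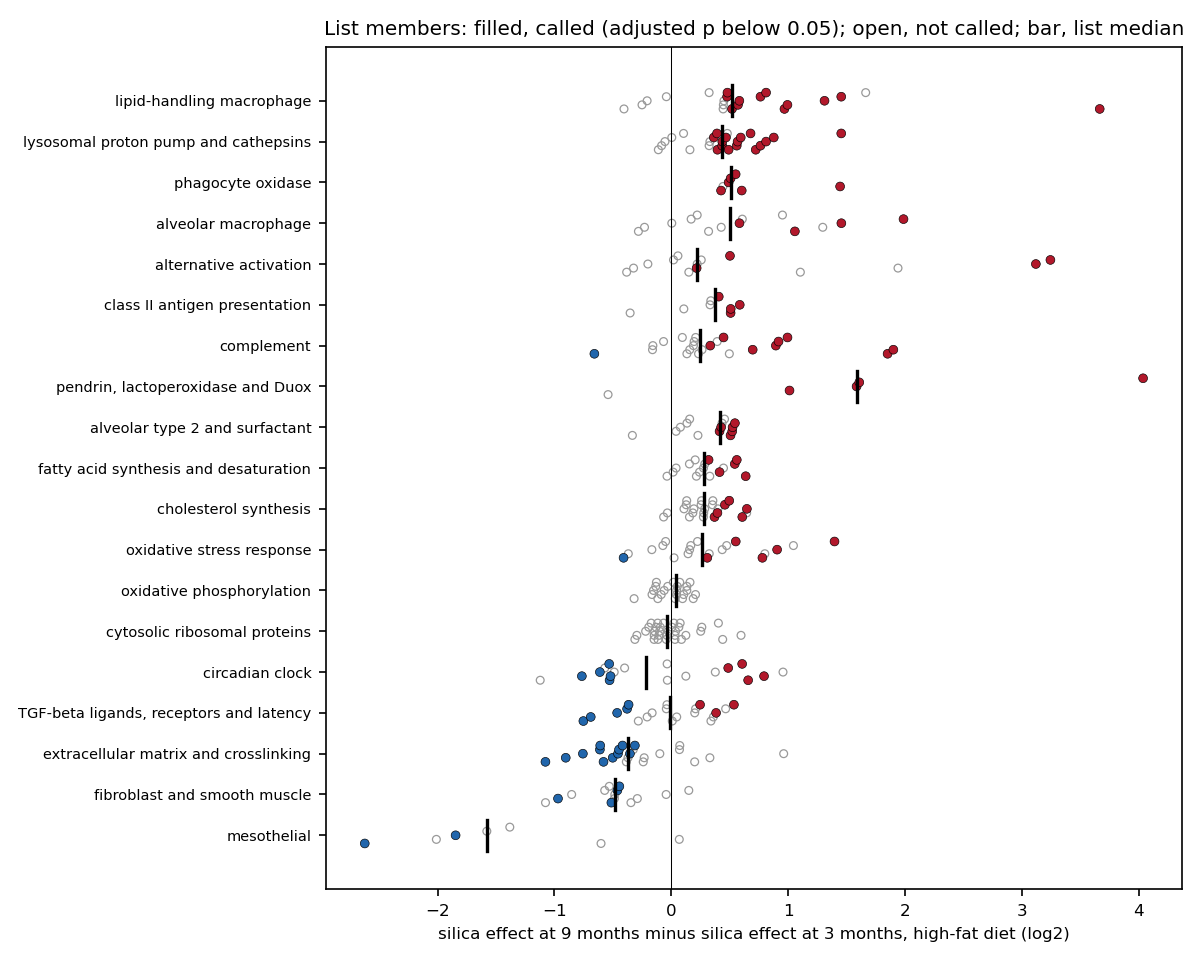
Rows are 19 gene lists, and each point is 1 tested member, placed by its silica effect at 9 months minus that at 3 months on the log2 scale. Filled points were called at an adjusted p below 0.05, open points were not, and the bar is the list median. The lysosomal and lipid-handling medians lie to the right of 0, the extracellular matrix median lies to the left, and ribosomal protein and oxidative phosphorylation genes hold no called member.

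In the lower direction the extracellular matrix list held the most calls. Of 23 genes for collagens, elastic fibres and crosslinking enzymes 12 had a lower difference and none a higher one, with a median of -0.37. Silica lowered 18 and raised 3 at 9 months (24.8% and 26.0% of all genes). It lowered 3 and raised none at 3 months (8.61% and 9.77% of all genes). Col3a1, the fibrillar collagen of distensible tissue, had the smallest p-value of all lower genes. It had 437, 449 and 460.4 CPM in silica rats and 579.8, 609.8 and 672 CPM in air rats at 9 months. At the earlier time the silica rats had 1459, 1472, 1433, 1256 and 1330.3 CPM and the air rats 1289, 1351, 1251, 1234 and 1272 CPM. All 6 silica rats lay below all 6 air rats at 9 months, and the groups overlapped at 3 months. The effect was -0.46 ± 0.05 at 9 months and 0.12 ± 0.05 at 3 months (difference -0.58 ± 0.07, adjusted p = 9.03e-07). Loxl2, a collagen crosslinking enzyme, had a difference of -0.90 ± 0.16 (adjusted p = 0.000334), Col6a3, of microfibrillar collagen, one of -0.61 ± 0.11 (adjusted p = 0.00035), and Col5a2, which regulates fibril width, one of -0.42 ± 0.08 (adjusted p = 0.000359). Col1a1, the major fibrillar collagen, had 43.6, 47.3 and 53.4 CPM in silica rats and 50.4, 62.1 and 69.3 CPM in air rats at 9 months. Its groups overlapped at both times, and the difference was -0.61 ± 0.16 (adjusted p = 0.0122).

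The cells that make matrix carried the same sign. Of 14 fibroblast and smooth muscle markers 4 had a lower difference (Pdgfrb, Tcf21, Tagln and Des) and none a higher one. At 9 months silica lowered 13 of the 14 markers, against 24.8% of all genes. Their summed level was 674 to 819 CPM in silica rats and 1208 to 1288 CPM in air rats at 9 months, which did not overlap, and 1071 to 1594 CPM in silica rats and 1357 to 1955 CPM in air rats at 3 months, which did. The count of 4 fell to 0 without air rats 4, 5 and 6 of the 9-month group, which had the most striated muscle RNA, and to 2 without air rat 2 or 3 or silica rat 2 at 3 months or silica rat 5 at 9 months. Without those 3 air rats the difference was -0.42 for Pdgfrb, -0.39 for Tcf21, -0.55 for Tagln and -0.56 for Des, against -0.44 ± 0.13, -0.46 ± 0.14, -0.51 ± 0.17 and -0.97 ± 0.29 with them. The count rose to 8 without air rat 1 or silica rat 1 at 3 months, while the matrix count lay between 11 and 15 under every other setting. The part of these marker levels in the matrix result was not tested.

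**Figure D4:**
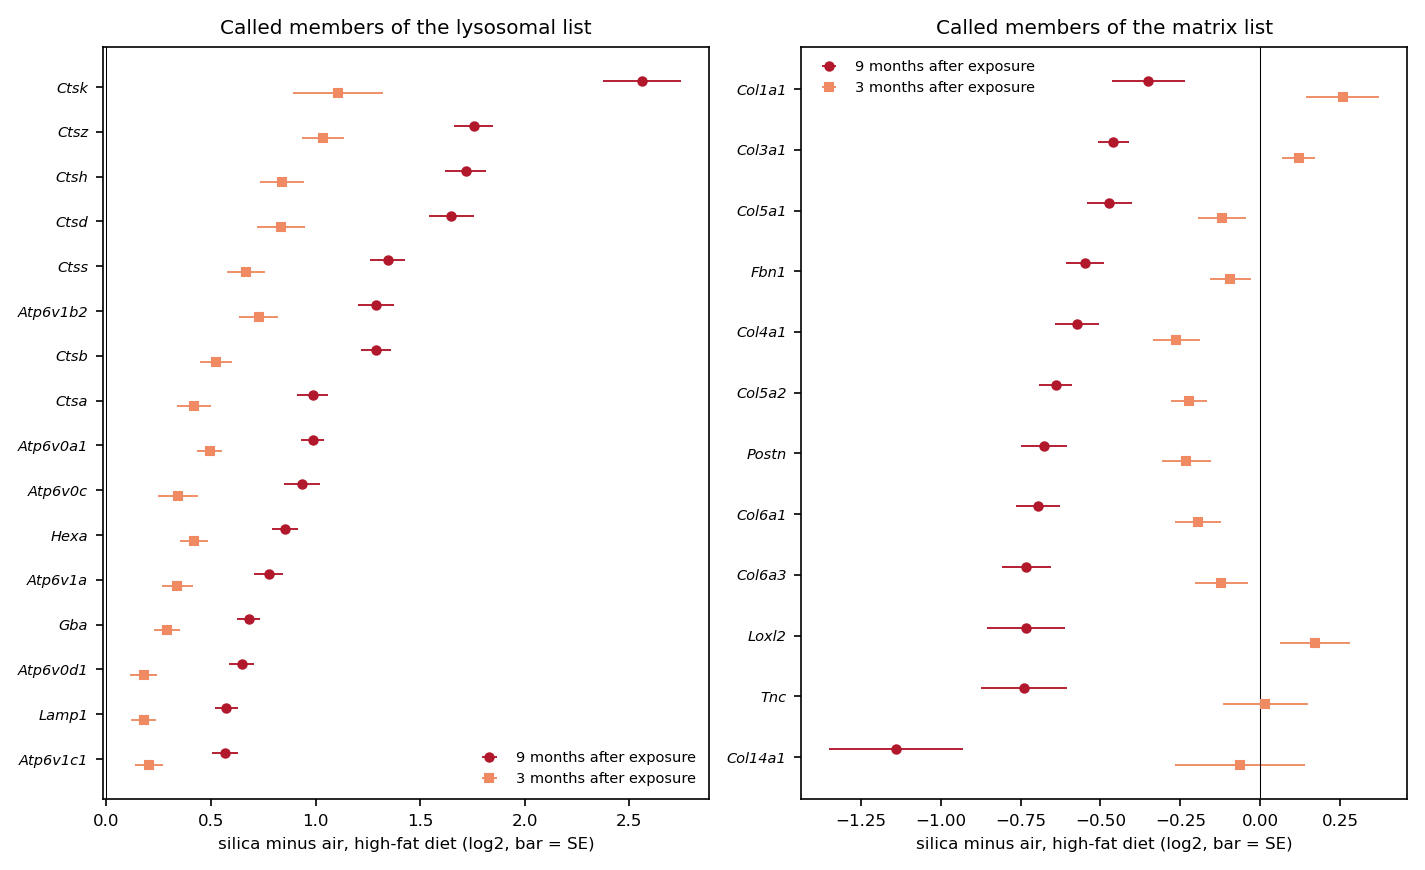
Silica minus air log2 fold changes with their SE on the high-fat diet are drawn at 9 months (circles) and 3 months (squares), for the 16 called lysosomal genes on the left and the 12 called matrix genes on the right. All 16 lysosomal genes lie above 0 at both times and further right at 9 months, and all 12 matrix genes lie below 0 at 9 months.

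Signals that guide matrix and tissue shape went both ways. In the transforming growth factor beta family 5 of 20 genes had a lower difference and 3 a higher one (4.12% and 6.55% of all genes). The list median was -0.01. Over the other settings the lower count lay between 4 and 6 and the higher count between 2 and 5. The lower ones were Tgfb3, Bmpr2 and the latent binding proteins Ltbp1, Ltbp3 and Ltbp4, which store the ligand in matrix, and the higher ones were Tgfb2, a ligand, and Tgfbr1 and Tgfbr2, the receptors. Ltbp1 had 90.3, 101 and 120.9 CPM in silica rats and 169, 171 and 191 CPM in air rats at 9 months. The 3-month values of Ltbp1 were 183, 195, 191, 156 and 178 CPM in silica rats and 201, 183, 192, 171 and 178 CPM in air rats. The 9-month groups were apart with silica lower, the 3-month groups overlapped, and the difference was -0.75 ± 0.10 (adjusted p = 6.26e-06). Tgfbr1 had the opposite sign, 0.54 ± 0.11 (adjusted p = 0.00123). Slit2, an axon and vessel guidance ligand, had a difference of -0.70 ± 0.11 (adjusted p = 6.16e-05). Lpar3, a receptor for lysophosphatidic acid, had -0.79 ± 0.13 (adjusted p = 7.38e-05). Slc7a10, a transporter of small neutral amino acids, had -0.86 ± 0.11 (adjusted p = 3.76e-06). For Slit2, Lpar3 and Slc7a10 silica rats lay below air rats without overlap at 9 months and overlapped them at 3 months. Of 17 metalloproteinases and inhibitors 1 was called, against 10.7% of all genes. It was Mmp14, the membrane collagenase, at 0.75 ± 0.11 (adjusted p = 1.36e-05).

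Of 11 markers of the thin alveolar type 1 cells 2 had a lower difference. Silica lowered 9 of these at 9 months and 8 at 3 months, and Cav1, the coat protein of caveolae, had a difference of -0.49 ± 0.10 (adjusted p = 0.00201) and Rtkn2 one of -0.42 ± 0.10 (adjusted p = 0.00526). All 16 endothelial markers were lowered at 9 months and 11 at 3 months, and 1, Tie1, had a called difference, at -0.31 ± 0.10 (adjusted p = 0.0303). Of 14 ciliated cell markers 11 were lowered at 9 months and 1 at 3 months, and 2 differences were called, Tppp3 and Dynlrb2, both lower. Scgb1a1, the secretory protein of club cells, had a difference of -0.23 ± 0.23 that was not called (adjusted p = 0.582), and 1 of 13 secretory airway genes, Aldh1a1, was. The list medians were -0.52 for ciliated cells, -0.28 for endothelium, -0.14 for type 1 cells and -0.64 for secretory airway cells. A positive difference was held by 0 of 14 ciliated, 1 of 16 endothelial, 2 of 11 type 1 and 4 of 13 secretory genes. Over the other settings the endothelial count lay between 0 and 8 and the ciliated count between 1 and 2. Of all genes 4.12% had a lower difference, and the endothelial and secretory counts of 1 lie near that share. Silica lowered 24.8% of all genes at 9 months and 8.61% at 3 months.

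Among the largest lower differences of called genes were those of Muc16 and Upk3b, markers of the mesothelium, and of Slc2a4. Muc16, a mucin of the mesothelium that covers the lung, had 15.1, 28.6 and 57.6 CPM in silica rats and 106, 140.4 and 246 CPM in air rats at 9 months. Silica rats had 76.5, 31.6, 62.2, 35.0 and 35.1 CPM at 3 months, against 21.0, 97.1, 30.6, 115.5 and 56.7 CPM in air rats. Silica rats were below air rats at 9 months, and at 3 months both groups were widely scattered. The difference was -1.85 ± 0.54 (adjusted p = 0.0229) and -1.75 without silica rat 3 at 3 months (adjusted p = 0.0507). Upk3b, another mesothelial marker, had a difference of -2.62 ± 0.88 (adjusted p = 0.0469) that lost its call in 12 of 22 fits without 1 rat. Slc2a4, the insulin-responsive glucose transporter of muscle and fat, had a difference of -2.61 ± 0.78 (adjusted p = 0.0256), and its groups overlapped at 9 months. Silica lowered 6 of 7 mesothelial and 11 of 15 striated muscle markers at 9 months (24.8% of all genes) and none of either at 3 months (8.61% of all genes). Mesothelial markers summed to 265 to 361 CPM in silica rats and 431 to 666 CPM in air rats at 9 months, and to 261 to 417 CPM in silica rats and 275 to 510.3 CPM in air rats at 3 months. Striated muscle markers summed to 25.6 to 492 CPM in silica rats and 60.2 to 1881 CPM in air rats at 9 months, and to 21.6 to 396 CPM in silica rats and 30.8 to 416 CPM in air rats at 3 months. Without air rats 4, 5 and 6 at 9 months, which had the highest muscle sums, the calls of Slc2a4 (difference -1.68, adjusted p = 0.188) and Upk3b (difference -2.48, adjusted p = 0.106) were lost. The part of the amount of pleura and muscle in each sample was not tested.

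Genes whose effect shrank or changed sign are named here after their values were seen, apart from Nkx2-8, Hdc and Il1r1. Nkx2-8, a homeobox transcription factor, had 2.39, 2.86 and 4.36 CPM in silica rats and 2.194, 3.10 and 4.38 CPM in air rats at 9 months, which overlapped. It had 8.45, 6.77, 7.79, 5.00 and 7.25 CPM in silica rats and 2.61, 0.783, 2.12, 3.24 and 1.62 CPM in air rats at 3 months, without overlap. Its effect was 0.01 ± 0.24 at 9 months and 1.75 ± 0.23 at 3 months, a difference of -1.74 ± 0.34 (adjusted p = 0.000778). Fmod, fibromodulin, which binds collagen fibrils, had no called effect at 9 months (adjusted p = 0.989) and was raised by 1.06 ± 0.16 at 3 months (difference -1.06 ± 0.21, adjusted p = 0.00101). Ryr3, a calcium release channel, and Hdc were also raised at 3 months and not called at 9 months, with differences of -0.64 ± 0.12 for Ryr3 and -0.82 ± 0.17 for Hdc. Tmem119, known as a marker of microglia and of bone-forming cells, turned: it was lowered by silica at 9 months (-0.58 ± 0.12) and raised at 3 months (0.34 ± 0.10), a difference of -0.92 ± 0.16 (adjusted p = 0.000137). B4galt6, an enzyme of glycolipid synthesis, turned the other way, at 0.41 ± 0.06 and -0.22 ± 0.07 (difference 0.63 ± 0.09, adjusted p = 1.17e-05). Il1r1, the interleukin 1 receptor, had the same order of signs with small sizes, 0.15 ± 0.04 and -0.13 ± 0.05.

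Of 18 clock genes tested, 4 had a higher difference (Npas2, Nfil3, Bhlhe40 and Bhlhe41) and 5 a lower one (Per3, Cry2, Nr1d2, Tef and Ciart). Of the 9, Per3 and Nr1d2 were raised and Npas2 lowered at 3 months with no called effect at 9 months, Cry2 changed direction, and the other 5 had a called effect at 9 months in the direction of the difference. Cry2, a repressor within the clock, had 30.7, 35.0 and 38.7 CPM in silica rats and 39.5, 40.3 and 44.3 CPM in air rats at 9 months. In the 3-month groups Cry2 reached 41.6, 44.4, 40.7, 48.8 and 45.2 CPM in silica rats and 34.8, 39.9, 38.2, 32.5 and 36.3 CPM in air rats. Silica rats were lower without overlap at 9 months and higher without overlap at 3 months, and the difference was -0.53 ± 0.11 (adjusted p = 0.00132). The labels give no hour of death, so its part in these differences was not tested. Without silica rat 4 at 3 months the lower count fell to 3.

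Some lists held no called difference. None of 32 cytosolic ribosomal protein genes, 22 oxidative phosphorylation genes or 23 Hnrnp and Srsf genes passed. The same held for 15 DNA damage genes, 11 erythroid genes, 7 aryl hydrocarbon receptor targets and 15 striated muscle genes. These lists, with those of neutrophil chemokines, natural killer cells and eosinophils named above, held 150 tested genes. Of these 15 had an unadjusted p below 0.05 in edgeR, against 3933 of all 15759 genes, and DESeq2 called 1 and limma voom 4. For the muscle genes the median was -2.17, with wide scatter between rats. Dividing cells gave 2 calls of 19 cell cycle genes, Mki67 and Top2a, both higher, and Mki67 had a difference of 0.60 ± 0.15 (adjusted p = 0.00674). Type I interferon genes gave 4 of 21, Usp18, Stat2, Gbp2 and Irf1, all higher. Of all genes 6.55% had a higher difference and 4.12% a lower one. Over the other settings the interferon count lay between 1 and 8 and the cell cycle count between 1 and 4. Of the remaining lists, acute-phase genes had 3 of 11 higher (Lbp, Chi3l1 and Lyz2) and fat cell genes 2 of 7 higher (Cfd and Fabp4). The fat cell list as a whole did not rise: its median was -0.04 and 3 of its 7 genes had a positive difference. Cfd also belongs to the complement list and Fabp4 to the alveolar macrophage list. Lymphoid tissue genes had 1 of 10 higher (Ltbr), and glucocorticoid response genes 1 higher and 1 lower of 15 (Sgk1 and Nr3c1). The lymphoid tissue call was lost in 15 of 22 fits without 1 rat, and without silica rat 3 at 3 months Cfd was not called (adjusted p = 0.0513). Without the muscle-rich air rats 4, 5 and 6 at 9 months Mki67 (adjusted p = 0.0563), Top2a, Icos, Csf3r, Cpa3, Siglec5, Stat6, Gbp2, Irf1 and Tie1 also lost their calls. Masp1 of the complement list lost its lower call there as well. Without air rat 6 at 9 months and air rat 4 at 3 months Top2a, Xbp1, Ltbr, Csf3r, Tpsb2, Siglec5, Stat6, Gbp2, Irf1, Duoxa1, Scd, Dynlrb2, Des, Tcf21, Tagln, Tgfb2, Slc2a4 and C3 did.

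Whether the change over time was particular to the high-fat diet was asked by setting it against the same difference in the 20 rats on the regular diet. There 1068 genes (6.78%) were called. The diets share no rat, and 389 genes were called on both, which is 23.1% of the high-fat and 36.4% of the regular-diet genes, and all 389 had the same sign. The test of the diet difference itself called 0 of 15759 genes (0.0%) with edgeR, where 1601 genes had an unadjusted p below 0.05 and the smallest adjusted p was 0.126. DESeq2 called 14 genes and limma voom 11. The ribosomal RNA share at 9 months differed between the diets. It was 2.60% to 5.35% in silica and 0.375% to 2.29% in air rats on the regular diet. On the high-fat diet it was 7.29% to 7.85% in silica and 4.62% to 7.19% in air rats. With that share as a covariate edgeR also called 0 genes for the diet difference, and its part in the diet comparison was not tested further. Esr1 had a difference of 3.49 ± 0.28 on the high-fat and 3.35 ± 0.30 on the regular diet, and the diets differed by 0.14 ± 0.40, with an interval of ± 2 SE from -0.66 to 0.94. For Chia the values were 3.12 ± 0.35 on the high-fat and 2.48 ± 0.37 on the regular diet (interval of the diet difference -0.37 to 1.66), for Ncf1 1.45 ± 0.17 and 1.47 ± 0.18 (interval -0.52 to 0.48), and for Col3a1 -0.58 ± 0.07 and -0.38 ± 0.08 (interval -0.41 to 0.01).

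Lysosomal and surfactant genes are set side by side here, and none had a called diet difference. On the regular diet 4 of 25 lysosomal genes had a higher difference (3.71% of all genes did), with a median of 0.14 on the regular diet beside 0.44 on the high-fat diet. None of 14 type 2 and surfactant genes did, with a median of -0.03 beside 0.42. Ctsd averaged 2139 ± 285 CPM in regular-diet silica rats (SD, n = 5) and 1067 ± 198 CPM in regular-diet air rats at 9 months (SD, n = 6). At 3 months it averaged 1557 ± 305 CPM in silica rats (SD, n = 5) and 887 ± 157 CPM in air rats (SD, n = 4). Its difference was 0.81 ± 0.15 on the high-fat and 0.19 ± 0.16 on the regular diet, and the diet difference of 0.62 ± 0.22 was not called (adjusted p = 0.324, interval 0.17 to 1.07). Ftl1 had the widest gap of the genes drawn, 1.40 ± 0.26 on the high-fat and -0.02 ± 0.29 on the regular diet (diet difference adjusted p = 0.195, interval 0.64 to 2.195). Acly, which makes the acetyl units for lipid synthesis, had 0.32 ± 0.08 and -0.06 ± 0.09 (adjusted p = 0.239, interval 0.14 to 0.62), and Ccl3 had 0.96 ± 0.22 and -0.03 ± 0.22 (adjusted p = 0.237, interval 0.37 to 1.62). For Ctsd, Ftl1, Acly and Ccl3 the interval of the single gene lies above 0, and none passed the adjustment over all genes. These genes were chosen for display after their values were seen, so their intervals cannot serve as a test of a diet difference.

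Among the smallest p-values of the diet difference were genes with a call on one diet and none on the other. Khdrbs1, an RNA-binding protein, had -0.08 ± 0.11 on the high-fat diet, not called, and 0.68 ± 0.12 on the regular diet, called (diet difference -0.75 ± 0.17, adjusted p = 0.126). Rcsd1, an actin-associated protein, had -0.37 ± 0.08 on the high-fat diet, called, and 0.21 ± 0.09 on the regular diet, not called (diet difference -0.58 ± 0.12, adjusted p = 0.126). Atp9a, a phospholipid flippase of endosomes, had 0.14 ± 0.08 on the high-fat diet, not called, and -0.40 ± 0.08 on the regular diet, called (diet difference 0.54 ± 0.11, adjusted p = 0.126).

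**Figure D5:**
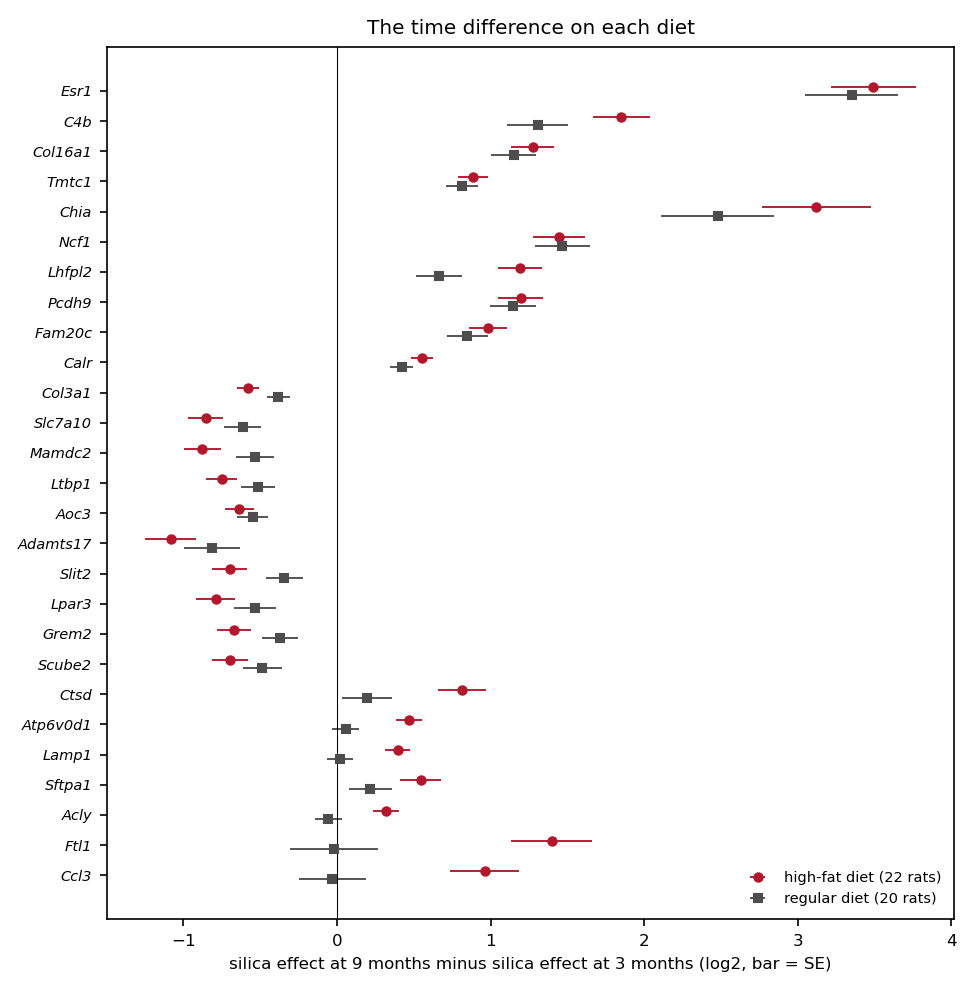
For each gene the silica effect at 9 months minus that at 3 months is drawn with its SE on the log2 scale, for the high-fat diet (circles) and the regular diet (squares). The first 20 genes have the smallest adjusted p-values on the high-fat diet and share their sign on both diets, and the last 7, chosen after their values were seen, lie nearer to 0 on the regular diet.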

How the data were processed

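RNA from a piece of lung of each of 42 rats was analysed, 22 of them on the high-fat diet. The authors deposited 2 tables of raw read counts per gene symbol, 1 for each time after exposure, each with 30045 symbols of which 30044 are shared. Per the submitters' processing notes reads were handled with TopHat2 2.0.9 on Bowtie2 2.2.9, HTSeq 0.6.1, Trimmomatic 0.35, SAMtools 0.1.19 and bcl2fastq 2.19, with build Rnor 6.0; the strand setting of the counting is not given in the sources used here, so overlapping and antisense genes, and near-identical copies, are uncertain. Columns were matched to rats by the tags in their names.

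The tables were joined by symbol. All 42 rats entered 1 model with 8 groups in edgeR 4.0.16 (R 4.3.3): filterByExpr, TMM factors, glmQLFit and glmQLFTest. The contrast was silica minus air at 9 months minus silica minus air at 3 months, on the high-fat diet, and genes with a Benjamini-Hochberg adjusted p below 0.05 over all 15759 tested were called. Effects are log2 fold changes, and CPM values use TMM library sizes. The fit was tested on simulated data. Shares of ribosomal RNA were compared by exact permutation. Alternatives included other size factors, no filter, DESeq2 1.42.0, limma voom (limma 3.58.1), the high-fat groups alone and the removal of each rat. Among 50 pairs of libraries within the high-fat groups none agreed within sampling noise; regular-diet pairs were not compared.

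Genes were named by a rule. From called genes with a mean log2 CPM of at least 1 it took the 10 with the smallest adjusted p and the 8 with the largest size in each direction. It added the 4 smallest p-values of the diet difference in each direction, the 4 members of each list with the smallest p, and a panel of 16 genes. Placeholder symbols and antigen receptor segments were left out. Some genes that the rule names are not reported here. Ctsd, Lamp1, Atp6v0d1, Fmod, Ryr3, Tmem119 and B4galt6 were named after their values were seen. The 45 lists name 738 genes, of which 725 are in the tables and 655 were tested. The members and lists were chosen with earlier results of these data known.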

Additional observations from a re-analysis of the deposited data

Results flagged for a closer look

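In 100 sets, each 1 gene or library measure in 1 high-fat group, a rat whose gap to its nearest neighbour was large for the range of its group was looked for, which chance gives in about 1 in 20. Air rat 6 at 9 months was such a rat for Chia (193 CPM), Retnla (19.2 CPM), Spp1 (10.8 CPM), Lpo (6.76 CPM) and Slc26a4 (14.6 CPM), as the highest of its group each time. Air rat 4 at 3 months was the highest for Lpo (2.50 CPM), Slc26a4 (6.32 CPM), Fabp4 (12.8 CPM) and Cd177 (2.65 CPM). Among silica rats, rat 1 at 3 months stood apart in Slc26a4 (117.3 CPM), rat 2 at 9 months in Apoe (979 CPM) and rat 5 at 9 months in Cd177 (45.4 CPM). All of these are genes with higher values in silica than in air rats at 9 months. The silica effect itself differed between 9 and 3 months in 1681 genes, by the test of that difference.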

How the results depend on the processing

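The count of 1681 genes with a different silica effect at 9 and 3 months was 709 at an adjusted p below 0.01. It stayed within 1.5 times under the other settings of the whole table, from 1254 without the muscle-rich air rats at 9 months to 2384 with limma voom, and ran from 1115 to 1908 without 1 rat, when 65.5% to 92.7% of the genes were called again. Silica against air called 2246 to 2905 genes at 3 months and 7327 to 8047 genes at 9 months without 1 rat. The diet difference, 0 genes with edgeR, was 14 with DESeq2 and 11 with limma voom, and ran from 0 to 7 without 1 rat, with 7 without regular-diet silica rat 1 at 3 months. Of the called genes among the 226 named, 94 were called in all 32 other settings and 44 lost their call in at least 1, and none changed sign. The 2 settings that leave out several air rats together were chosen after seeing the data. The cause of these changes was not tested. No paired analysis was possible because the rats of different groups carry different tags and share no number. Depth of 3078216 to 8319382 counts limits genes of low level such as Lpo, and the time comparison rests on 1 table per time.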
